A study of Mus musculus with 6 samples.

Results

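The cells described here are tubular cells of mouse kidney that carry transcripts of Havcr1, the gene for kidney injury molecule 1. A cell was taken as Havcr1-positive when its barcode had 500 or more UMIs (unique molecular identifiers, each a counted transcript), 250 or more genes, no more than 50% of its UMIs from mitochondrial genes, 2 or more UMIs of Havcr1, and no UMI of the leukocyte genes Ptprc and Cd3e. Of 60181 barcodes in 6 single-cell libraries, 49797 passed the first 3 filters and 354 met the whole rule. The comparison cells, called Havcr1-zero proximal tubule cells, passed the same filters with no UMI of Havcr1 or Ptprc and at least 2 UMIs summed over Slc34a1 and Lrp2, which encode a phosphate transporter and the endocytic receptor megalin of the proximal tubule. There were 18868 of them.

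The study profiled whole-kidney cell suspensions in 3 groups of 2 kidneys, all labelled male, although the study's methods give kidney donors of either sex. Naive kidneys were untransplanted C57BL/6 (B6) kidneys from animals aged 10 to 12 weeks. Rejecting kidneys were BALB/c allografts, aged 6 to 7 weeks by their labels, placed in B6 males that had lost both of their own kidneys and taken 15 days after surgery. Tolerized kidneys were the same grafts in recipients that had also been infused with BALB/c splenocytes treated with the fixative ethylenecarbodiimide. Strain, age and transplantation differ together between naive and grafted kidneys, and the naive libraries were deposited with a gene list of 28692 genes against 31053 for the grafts, so these differences cannot be told apart there. No label says whether each library came from 1 animal, and p-values therefore measure the spread between these libraries.

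Kidney injury molecule 1 is a membrane receptor with an immunoglobulin-like and a mucin-like domain. It is nearly absent from healthy tubule and appears on proximal tubule cells after ischemic or toxic damage, where it binds phosphatidylserine on dying cells and lets the epithelial cell take them up. Proximal tubule cells that fail to recover are known to lose transporters and metabolic enzymes and to express adhesion molecules and cytokines, among them VCAM-1, and the last segment of the proximal tubule, S3, is known as the part most exposed to ischemia. Havcr1 lies at chr11:46735080-46779578 on the plus strand (GRCm38, the assembly also called mm10, with GENCODE M21 gene models), beside its paralog Timd2 at chr11:46668960-46707061 on the minus strand. How reads that match both paralogs were counted is not given in the sources used here.

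Havcr1-positive cells were found in grafts and not in naive kidneys. The 2 rejecting kidneys held 42 and 62 of them, and the 2 tolerized kidneys held 218 and 32. Neither naive kidney held any, beside 5469 and 4511 Havcr1-zero cells. A single graft, tolerized 1, thus gave 61.6% of the cells. Just inside the threshold, 158 of the 354 cells (44.6%) held exactly 2 Havcr1 UMIs, while 32 held 10 or more and the highest count in a cell was 68, in tolerized 1. Just outside it, 158, 95, 328 and 108 barcodes of rejecting 1, rejecting 2, tolerized 1 and tolerized 2 held exactly 1 UMI, against 6 and 9 in the naive kidneys.

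As a percent of Havcr1-positive and Havcr1-zero cells together, the positive cells made up 1.91% of rejecting 1 (exact Clopper-Pearson 95% interval 1.38 to 2.58). In rejecting 2 they made up 6.42% (4.96 to 8.16), in tolerized 1 6.79% (5.95 to 7.72) and in tolerized 2 1.11% (0.763 to 1.57). In naive kidneys the counts of 0 allow shares of up to 0.0549% and 0.0665%, taken as 3 cells of the total, and the exact intervals reach 0.0674% and 0.0817%. These intervals and limits cover counting error alone. The spread within each graft group was larger than the difference between the groups: rejecting kidneys averaged 4.17% ± 3.19 and tolerized kidneys 3.95% ± 4.01 (SD, n = 2 each; two-sided exact permutation test, p = 1, where 2 against 2 can give no less than 2 of 6 arrangements).

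The Havcr1-positive cells were also the more deeply counted cells. Their median UMI count was 12192 against 3572 in Havcr1-zero cells of rejecting 1, and 10848 against 4226 in rejecting 2. It was 17655 against 6626 in tolerized 1 and 29194.5 against 9880 in tolerized 2. Since a deep cell passes a threshold of 2 UMIs more easily, each cell was also thinned to 2000 UMIs, leaving out shallower cells (1770, 790, 3139 and 2267 cells remained in the grafts). The shares were then 0.395%, 1.77%, 1.15% and 0.0441% in the same order, and the naive kidneys gave 0 of 4283 and 0 of 3244 cells. Over all cells the highest and the lowest graft were both tolerized, while after thinning rejecting 2 was the highest and tolerized 2 the lowest.

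**Figure D1:**
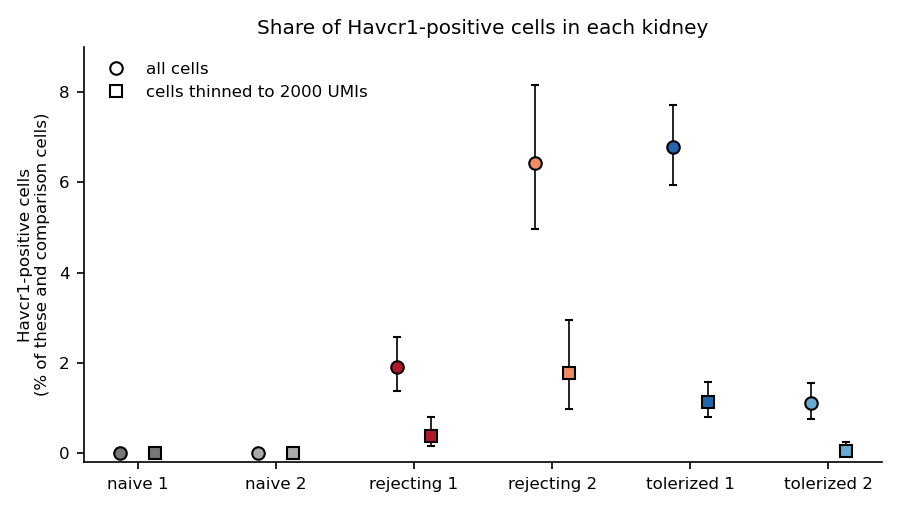
Havcr1-positive cells as a percent of Havcr1-positive and Havcr1-zero cells (y axis) in each of the 6 kidneys (x axis), for all cells (circles) and for cells thinned to 2000 UMIs (squares), with exact 95% intervals as bars. Both naive kidneys sit at 0, while the grafts run from 1.11% to 6.79% with a high and a low kidney in each group.

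Barcodes with 2 Havcr1 UMIs were rare among other cell types. Thick ascending limb barcodes were those with at least 2 UMIs of Umod and Slc12a1, no Ptprc, and fewer than 2 UMIs over Slc34a1 and Lrp2. Barcodes that also carried proximal tubule RNA at that level were thus left out of this class. In the 4 grafts 0 of 780, 462, 685 and 986 held 2 Havcr1 UMIs. This allows shares of up to 0.385%, 0.649%, 0.438% and 0.304%, at median depths of 1606.5, 4452.5, 5322 and 6535.5 UMIs. Macrophage barcodes (at least 2 UMIs of C1qa and C1qb, with Ptprc) reached it in 0.208% to 0.382%, at median depths of 4912.5 to 15057 UMIs. B cell barcodes, a leukocyte type known to transcribe Havcr1, reached it in 0% to 0.721%. By Scrublet score 22 of the 354 cells (6.21%) ranked among the likely doublets. In each graft the share was higher in positive than in Havcr1-zero cells, at 4.76%, 4.84%, 6.42% and 9.38% against 3.58%, 2.55%, 3.54% and 4.12%. The former shares rest on 2, 3, 14 and 3 positive cells. Over all barcodes past the filters 1102 of 11739, 522 of 8079, 771 of 9819 and 379 of 6880 ranked so, counts fixed by the number of barcodes in each library.

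The name "injured tubular cell" rests on Havcr1, Vcam1 and Krt18, and the last of these did not follow it. Proximal tubule markers other than those of the rule (12 genes, Miox and Slc27a2 among them) summed to 10689, 10975, 12455 and 12339 CPM (UMIs of a gene per 1000000 UMIs of the summed cells) in Havcr1-positive cells of rejecting 1, rejecting 2, tolerized 1 and tolerized 2. The order of the grafts is kept below wherever 4 values are given. These levels were below the 14259, 14868, 17015 and 13915 CPM of the Havcr1-zero cells. At least 2 UMIs of this list stood in 99.5% to 100% of the positive cells, but detection alone does not tell the cell type at these depths: thick ascending limb markers reached it in 73.8%, 71.0%, 83.0% and 93.8% of the same cells and macrophage markers in 97.6%, 45.2%, 69.3% and 53.1%. Thinned to 5000 UMIs, the shares of positive cells were 100% in each graft for the proximal list. They were 45%, 49.1%, 39.7% and 53.1% for the thick ascending limb list. For the macrophage list they were 65%, 14.04%, 21.1% and 6.25%, so that it stayed frequent in rejecting 1. In thinned Havcr1-zero cells both lists were more frequent in each graft. The thick ascending limb list stood there at 50.1%, 57.5%, 59.9% and 67.1% and the macrophage list at 68.0%, 23.7%, 22.8% and 11.4%. Stromal markers such as Col1a1 and Pdgfrb summed to at most 1.97 CPM in the positive cells of any graft, with 6 of 8 at 0 in each.

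Vcam1, which encodes an adhesion molecule for leukocyte integrins, was at 199, 146, 99.6 and 34.4 CPM in Havcr1-positive cells and at 70.1, 59.9, 30.7 and 22.2 CPM in Havcr1-zero cells of the same kidneys. Naive Havcr1-zero cells held 2.44 and 2.67 CPM. The positive cells were higher in each of the 4 grafts, although the ranges overlapped between kidneys. The within-kidney log2 fold change was 1.29 (SE 0.15, adjusted p = 0.000257, edgeR's quasi-likelihood test with the kidney as a block). It was no longer past the threshold when Havcr1-zero cells of matched depth were used (0.93, adjusted p = 0.121). Per cell, 121 of the 354 (34.2%) held a Vcam1 UMI, from 28.1% in tolerized 2 to 45.2% in rejecting 1.

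Krt18, a keratin of simple epithelia, was at 31.6, 13.6, 20.4 and 1.97 CPM in Havcr1-positive cells and at 12.6, 12.3, 30.8 and 27.9 CPM in Havcr1-zero cells. It was higher in both rejecting kidneys and lower in both tolerized ones, and the log2 fold change of -0.54 (SE 0.41) did not pass (adjusted p = 0.516). A Krt18 UMI stood in 28 positive cells (7.91%), together with Vcam1 in 15 cells, and 220 cells (62.1%) held neither gene. Its partner keratin Krt8 did pass as higher in positive cells.

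Among themselves, the positive cells differed with the number of Havcr1 UMIs they held. Spp1, which encodes osteopontin, was at 941, 2762, 866 and 918 CPM in cells with exactly 2 Havcr1 UMIs and at 5219, 9867, 6770 and 3416 CPM in cells with 5 or more. Cp, which encodes the copper-carrying ferroxidase ceruloplasmin, went from 30.5, 69.1, 16.4 and 11.6 CPM to 468, 207, 142 and 44.3 CPM between the same classes. Both genes were thus higher in the upper class in each graft, and so was Vcam1.

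The proximal tubule genes Miox and Slc5a2 ran the other way over these classes. Miox, the first enzyme of inositol breakdown, was at 2342, 1707, 2819 and 2280 CPM in cells with 2 Havcr1 UMIs and at 674, 941, 1247 and 1160 CPM in cells with 5 or more. The S1/S2 glucose transporter gene Slc5a2 was at 83.8, 78.1, 23.6 and 76.9 CPM against 0, 23.9, 8.16 and 22.2 CPM. The S3 transporter gene Slc7a13 showed no such order, with 594, 427, 578 and 634 CPM against 215, 443, 558 and 613 CPM. The upper class held 6, 16, 65 and 6 cells of median depth 19642, 13214, 21512 and 45324 UMIs, deeper than the 11174, 9789, 13440 and 22442 UMIs of cells with exactly 2. These values are a description of the cells that the rule gathered, and the part of depth in them was not tested.

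**Figure D2:**
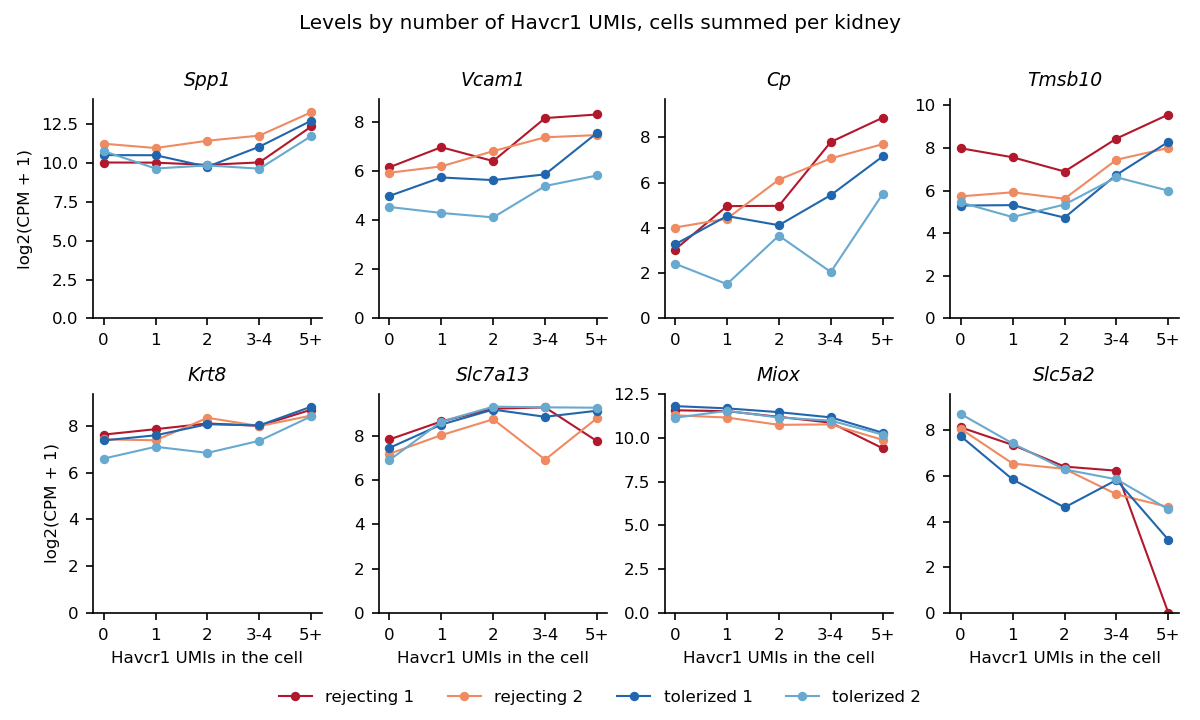
Level of 8 genes, as log2(CPM + 1) (y axis), in cells grouped by their number of Havcr1 UMIs (x axis, 0 being the comparison cells), summed within each of the 4 grafts (lines). Spp1, Vcam1, Cp and Tmsb10 were higher at 5 or more UMIs than at 2 in each graft, Miox and Slc5a2 were lower, and Slc7a13 had no common order.

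Within the same kidney, Havcr1-positive cells differed from Havcr1-zero cells in genes of tubule segment, injury and metabolism. Of the listed genes tested, 6 of 8 S3 markers, 12 of 17 early response genes and 17 of 34 injury genes were higher in positive cells, with 0, 0 and 2 lower. Lower were 7 of 8 S1/S2 markers and 5 of 8 gluconeogenesis and fructose genes, with 0 higher in either list. Of 10872 genes tested on UMI counts summed per kidney and population, 1125 (10.3%) passed a false discovery rate of 0.05 in edgeR's quasi-likelihood test, 590 of them higher (5.43%) and 535 lower (4.92%) in positive cells. The genes of the rule (Havcr1, Slc34a1, Lrp2, Ptprc and Cd3e) were not tested. As a description, Slc34a1 was at 1499, 1502, 1768 and 1570 CPM in positive and at 2809, 2621, 3096 and 2619 CPM in Havcr1-zero cells, and Lrp2 at 1181, 859, 1018 and 921 against 1485, 1181, 1048 and 890 CPM.

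Depth and segment moved with the populations, so the fit was repeated on other cells. Against as many Havcr1-zero cells of matched depth, 646 of 7383 genes passed (8.75%, with 4.81% higher and 3.94% lower). Of the 860 earlier calls that could be fitted again 858 kept their sign, but only 570 passed again in that direction. A further repeat, chosen after seeing the data, kept S3-type cells of both populations (at least 2 UMIs over Slc7a13, Slc22a30 and Slc22a7, and more than over Slc5a2, Slc5a12, Slc6a19 and Slc7a7). It passed 525 of 9048 genes (5.8%, with 3.3% higher and 2.5% lower). Of 934 earlier calls 896 kept their sign and 381 passed again. With both restrictions 271 of 5842 genes passed (4.64%, with 2.86% higher and 1.78% lower). Of 730 earlier calls 696 then kept their sign and 214 passed again. Leaving out tolerized 1, the graft with most positive cells, left 479 calls.

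Segment identity was the first difference. S3-type cells made up 59.5%, 48.4%, 61.9% and 78.1% of the Havcr1-positive cells of the 4 grafts. They made up 24.8%, 22.3%, 29.4% and 16.5% of the Havcr1-zero cells, and 28.6%, 24.2%, 33.0% and 21.9% of those of matched depth. Each graft thus held the larger S3 share in its positive cells. Of 8 S3 marker genes 6 rose and none fell (median log2 fold change 1.26), and of 8 S1/S2 marker genes 7 fell and none rose (median -1.82), beside a median of -0.0003 over the genes tested.

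The S3 gene Slc7a13, which encodes an aspartate and glutamate transporter, was at 515, 346, 538 and 624 CPM in positive and at 226, 144, 174 and 118 CPM in Havcr1-zero cells. The lowest positive value lay above the highest Havcr1-zero value, and the log2 fold change was 1.57 (SE 0.18, adjusted p = 0.000216). The S1/S2 gene Slc5a2, which encodes the glucose transporter SGLT2, was at 61.5, 49.5, 27.2 and 56.0 CPM in positive and at 278, 266, 213 and 417 CPM in Havcr1-zero cells. It was 6.62-fold lower (log2 fold change -2.73, SE 0.14, adjusted p = 1.01e-06) with no overlap. Gatm, the first enzyme of creatine synthesis, fell by 2.26 on the log2 scale, and still fell by 1.5 between S3-type cells (adjusted p = 2.24e-07).

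Over the solute transporters of the proximal tubule, 11 of 27 genes rose and 9 fell. Those that rose included Slc22a7, Slc7a13 and Slc5a1 and those that fell included Slc34a3 (log2 fold change -2.75), Slc7a8 (-2.70) and Slc5a12 (-2.65). Between S3-type cells 4 of 19 rose and 5 fell. The sodium-bicarbonate cotransporter gene Slc4a4 was among the latter (-0.41, adjusted p = 0.00395), and Slc22a8, an organic anion transporter gene, too (-1.17, adjusted p = 2.52e-07). Slc7a8 did not pass there (-0.87, adjusted p = 0.303). Of 8 genes of protein endocytosis none rose and 1 fell, a share close to the 10.3% over all genes tested. That gene was Dab2, which encodes a clathrin adaptor (-0.59, adjusted p = 0.00155). Between S3-type cells Dab2 did not pass (-0.22, adjusted p = 0.282).

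Among genes with a mean log2 CPM of at least 5, Bcat1 and Cyp7b1 had the largest rises. Bcat1, at chr6:144993835-145076184, encodes the cytosolic enzyme that starts the breakdown of branched-chain amino acids. It was at 105, 53.2, 109 and 136 CPM in positive cells and at 1.28, 1.61, 1.5 and 0.612 CPM in Havcr1-zero cells, and naive Havcr1-zero cells held 1.06 and 2.83 CPM. No kidney overlapped, and the log2 fold change was 6.56 (SE 0.29, adjusted p = 3.58e-07).

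Cyp7b1, at chr3:18071950-18243338, encodes an oxysterol hydroxylase and counts among the S3 markers. It was at 506, 219, 303 and 438 CPM in positive cells and at 6.48, 10.2, 2.88 and 4.36 CPM in Havcr1-zero cells. Its log2 fold change was 6.08 (SE 0.32, adjusted p = 1.01e-06) and remained 5.49 between S3-type cells (adjusted p = 2.75e-13), as that of Bcat1 remained 5.66 (adjusted p = 2.22e-13). Cells with exactly 1 Havcr1 UMI, just outside the rule, held 71.4, 109, 41.1 and 7.41 CPM of Cyp7b1.

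Other genes with the largest rises had log2 fold changes from 2.13 to 3.91. They were Mettl7a2 (3.91), Serpina10 (3.29), Hspb1 (2.60), Akr1c14 (2.48), Mep1b (2.46), Slc22a7 (2.38), Cryab (2.34), Acsm3 (2.24) and Slc7a12 (2.13). Mep1b encodes a subunit of the brush border protease meprin, and Hspb1 and Cryab encode small heat shock proteins. Apart from Slc22a7, which chose the S3-type cells and was not tested there, these genes also passed between S3-type cells, where Cryab had a log2 fold change of 4.30 (adjusted p = 3.16e-13). The log2 fold change there was also larger for Serpina10 (3.59) and Hspb1 (2.88). It was smaller for Mettl7a2 (3.39), Akr1c14 (1.44), Mep1b (1.32), Acsm3 (1.32) and Slc7a12 (1.09). Mettl7a2 has a close paralog, so its reads may be split. Matched for depth among all segments, Cryab did not pass (1.40, adjusted p = 0.294).

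**Figure D3:**
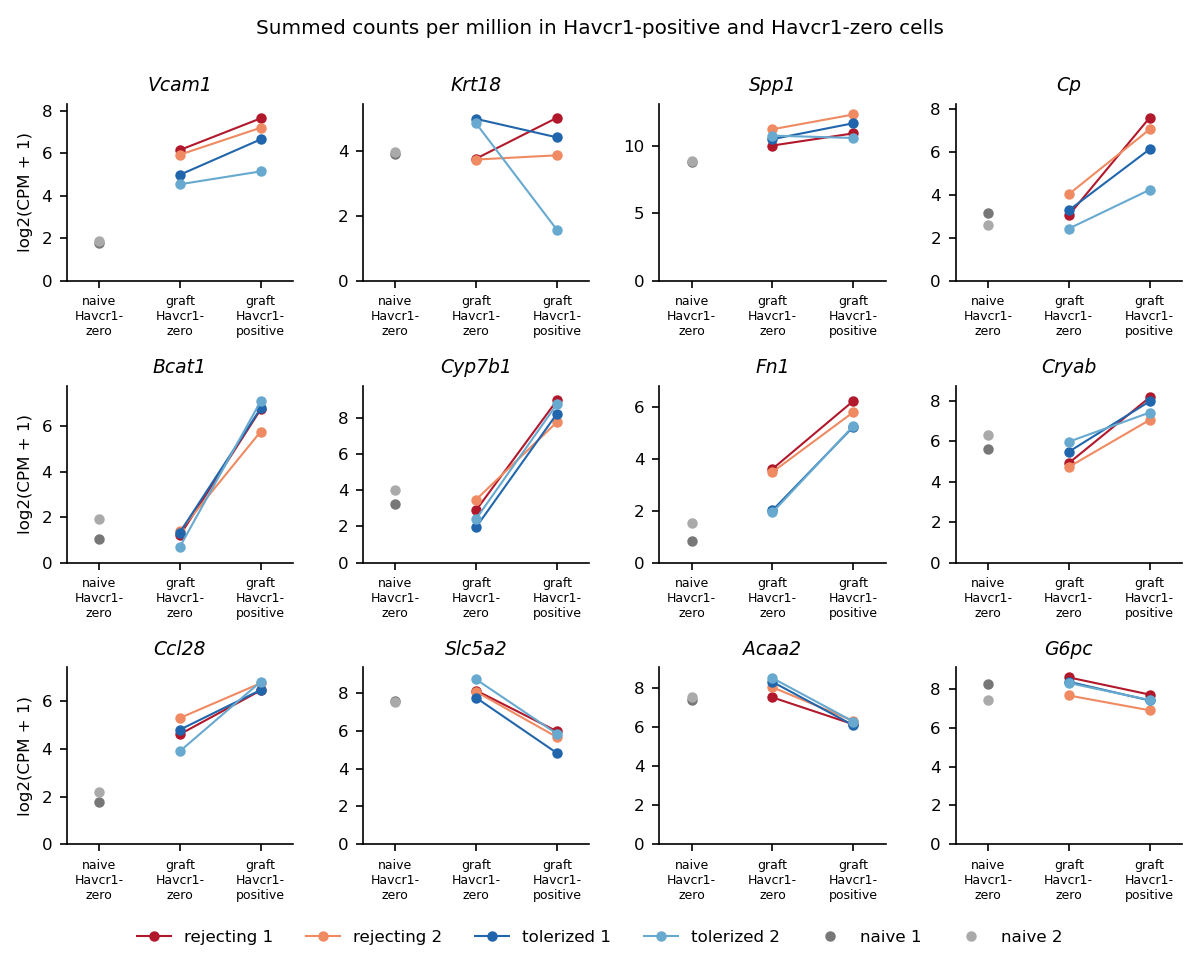
Level of 12 genes, as log2(CPM + 1) (y axis), in Havcr1-zero cells of the 2 naive kidneys and in Havcr1-zero and Havcr1-positive cells of the 4 grafts, each line joining the 2 populations of a graft. Bcat1, Cyp7b1, Fn1, Cp, Cryab and Ccl28 were higher and Slc5a2, Acaa2 and G6pc lower in the positive cells of each graft, while Krt18 moved in both directions.

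Most injury and repair genes that passed against the whole set of Havcr1-zero cells were higher in positive cells. Of 40 listed genes 34 were tested, 17 rose and 2 fell, with a median log2 fold change of 0.69. Cp had the largest rise, with 190, 130, 68.0 and 17.7 CPM in positive against 7.25, 15.2, 8.65 and 4.36 CPM in Havcr1-zero cells (log2 fold change 3.22, SE 0.29, adjusted p = 4.24e-05). Every positive value lay above every Havcr1-zero value, and the rejecting kidneys held the higher levels.

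Spp1 was at 1956, 5166, 3295 and 1544 CPM in positive against 1046, 2418, 1454 and 1740 CPM in Havcr1-zero cells. It was higher in 3 of 4 grafts and the ranges overlapped (log2 fold change 0.70, SE 0.18, adjusted p = 0.0334). Between S3-type cells the log2 fold change was 2.28 (adjusted p = 1.49e-08). Gdf15, a stress-induced member of the TGF-beta family, was at 362, 548, 234 and 154 CPM against 201, 143, 96.4 and 51.2 CPM (1.35, SE 0.16, adjusted p = 0.000249), higher in each graft. Anxa3, an annexin, had a log2 fold change of 2.11, which at matched depth was 0.78 and did not pass (adjusted p = 0.517), and Plaur, the urokinase receptor, 1.63. The 2 genes that fell were Krt7 (-2.19, adjusted p = 0.0231), a keratin of the distal and collecting tubule, and Prom1, a membrane protein of epithelial projections (-0.99, adjusted p = 0.00986). Between S3-type cells Krt7 did not pass (-0.81, adjusted p = 0.289), and Prom1 turned to 0.39 and did not pass either (adjusted p = 0.703).

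The count of injury genes depended on the cells compared. At matched depth 7 of 29 rose and 1 fell (median 0.44), and between S3-type cells 11 of 26 rose and none fell (median 0.59). Cp, Spp1, Dcdc2a, S100a11, Plau, Gdf15 and Krt8 rose in both of these and in the full comparison. Vcam1 passed in neither (0.73 between S3-type cells, adjusted p = 0.0755), and Krt18 had a log2 fold change of 1.23 between S3-type cells that did not pass (adjusted p = 0.0961). The list was chosen with earlier results of these data known.

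**Figure D4:**
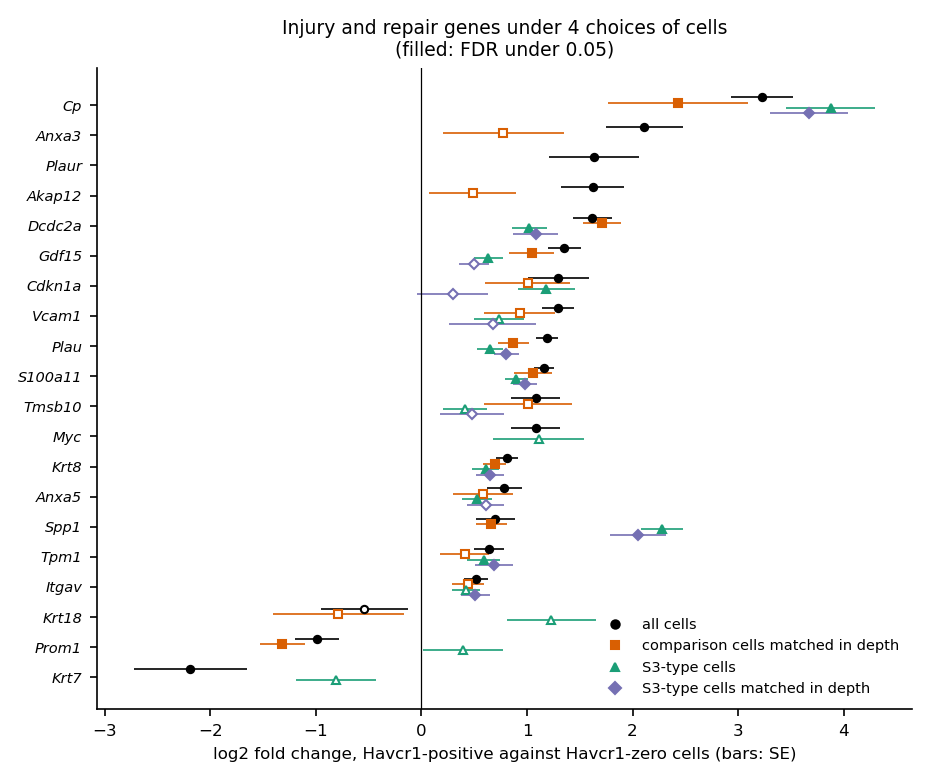
Log2 fold change (x axis, bars are standard errors) of 20 injury and repair genes, those that passed in the full comparison and Krt18, in Havcr1-positive against Havcr1-zero cells under 4 choices of cells. Filled points passed a false discovery rate of 0.05; Cp, Plau, S100a11, Dcdc2a, Krt8 and Spp1 are filled under each choice, and Krt18 lies on either side of 0.

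Immediate early genes, which cells switch on within minutes of a stimulus and also during tissue dissociation, rose at 12 of 17 and fell at none (median 0.67). Ier2 was at 188, 123, 196 and 153 CPM in positive against 77.4, 65.1, 77.5 and 60.5 CPM in Havcr1-zero cells (log2 fold change 1.17, SE 0.11, adjusted p = 5.84e-05) with no overlap. The transcription factor genes Atf3 (1.26), Egr1 (1.18) and Junb (0.85) rose too. At matched depth 5 of 16 rose, Ier2 and Egr1 among them, but not Atf3 (0.64, adjusted p = 0.0876) or Junb (0.32, adjusted p = 0.2), and between S3-type cells 8 of 17. Between depth-matched S3-type cells 2 of 16 rose (median 0.25), Ier2 among them (0.63, adjusted p = 0.0397) but not Egr1 (0.64, adjusted p = 0.0668). The part of dissociation in these levels was not tested.

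Of 19 cell cycle genes 1 rose and 1 fell, a share close to the 10.3% over all genes tested. Cdkn1a, the inhibitor p21 that halts the cycle, was at 79.1, 199, 66.8 and 22.6 CPM in positive against 43.1, 29.9, 32.4 and 17.3 CPM in Havcr1-zero cells (log2 fold change 1.30, SE 0.29, adjusted p = 0.0132). It was higher in each graft, most of all in rejecting 2. It passed between S3-type cells (1.18, adjusted p = 0.00599) but neither at matched depth (1.01, adjusted p = 0.164) nor between depth-matched S3-type cells (0.30, adjusted p = 0.806). Ccnd1, the cyclin of G1 phase, fell by 0.92 on the log2 scale (adjusted p = 0.00182), and between S3-type cells it did not pass (-0.03, adjusted p = 0.97).

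Of 19 matrix, adhesion and cytoskeleton genes 4 rose and 1 fell. Fn1, which encodes fibronectin, was at 73.8, 54.4, 36.5 and 37.3 CPM in positive against 11.2, 10.2, 3.03 and 2.81 CPM in Havcr1-zero cells (log2 fold change 3.09, SE 0.23, adjusted p = 1.12e-05). Cldn3, which encodes a tight junction claudin, had a log2 fold change of 2.75 (adjusted p = 0.000113) and Tagln2, an actin-binding protein, 0.87 (adjusted p = 0.00152). The positive cells were higher without overlap for all 3 genes. Between S3-type cells 2 of 16 rose, Fn1 and Cldn3, and Tagln2 did not pass (0.45, adjusted p = 0.215). Tmsb4x, an actin-sequestering peptide abundant in leukocytes, fell by 1.33 on the log2 scale, and in the depth-matched cells it did not pass (-0.90, adjusted p = 0.12).

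Signals to other cells formed a mixed group. Of 18 chemokine, cytokine and growth factor genes tested, 7 rose and 2 fell, the chemokine genes Ccl8 and Ccl5, the latter with a log2 fold change of -0.88 that was 0.08 at matched depth (adjusted p = 0.961). In cells without leukocyte marker UMIs Ccl5 turned to 1.98, on 0, 12, 48 and 1 positive cells. Ccl28, an epithelial chemokine, was at 86.1, 106, 87.3 and 111 CPM in positive against 23.4, 38.1, 26.8 and 13.9 CPM in Havcr1-zero cells, and at 2.44 and 3.51 CPM in naive Havcr1-zero cells (log2 fold change 1.96, SE 0.21, adjusted p = 0.00014). Cxcl1, a neutrophil attractant, was at 15.8, 104, 37.3 and 32.4 CPM against 6.65, 19.9, 4.06 and 4.21 CPM (2.59, SE 0.25, adjusted p = 5.96e-05). Csf1, the growth factor of macrophages, was at 79.1, 29.7, 19.5 and 3.93 CPM against 12.4, 6.62, 4.88 and 4.72 CPM, higher in 3 of 4 grafts (log2 fold change 1.89, adjusted p = 0.00195). Tgfb2 had a log2 fold change of 2.27 (adjusted p = 0.00573). At matched depth 3 of 11 rose, Ccl28, Csf1 and Il34, and Cxcl1 did not pass (1.89, adjusted p = 0.0667), though it did between S3-type cells (2.14, adjusted p = 0.000159).

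The interferon-induced attractant Cxcl10 was at 522, 136, 154 and 481 CPM in positive against 317, 198, 103 and 111 CPM in Havcr1-zero cells and did not pass (0.70, adjusted p = 0.199), though it did between S3-type cells (1.15, adjusted p = 0.00461). Of 15 NF-kB and TNF response genes 3 rose, the feedback inhibitors Nfkbiz (0.74) and Nfkbia (0.65) among them, and 2 fell, Tnfaip2 (-1.61) and Tnfaip8 (-0.83). At matched depth Nfkbiz (0.37, adjusted p = 0.212) and Nfkbia (0.22, adjusted p = 0.631) did not pass, while between S3-type cells both did (1.00 and 0.70, adjusted p = 0.00163 and 0.0237). Of 11 complement genes 3 rose and none fell: C1s1 (1.55), Cd55 (1.11) and Serping1 (0.78), of which the latter 2 restrain complement. At matched depth 1 of 9 rose, Cd55, which did not pass between S3-type cells (0.43, adjusted p = 0.388). C3 was at 135, 82.9, 56.5 and 36.4 CPM against 87.9, 89.6, 55.5 and 19.6 CPM and did not pass (adjusted p = 0.442).

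Between the populations the median log2 fold change was -0.0058 for MHC class I genes and 0.12 for class II genes. Beside the 10.3% of all genes tested that passed, none of 16 class I genes passed by edgeR (2 had an unadjusted p under 0.05, and DESeq2 called 0). Between S3-type cells 1 of the 16 passed, H2-D1, the heavy chain of a class I molecule (0.31, adjusted p = 0.0205). Of 9 class II genes 1 fell in the full comparison, Ctss (-1.18, adjusted p = 0.0359), a lysosomal protease of antigen-presenting cells. Cd74, the invariant chain of class II, was at 5778, 5559, 5944 and 4423 CPM in positive and at 4776, 5402, 5311 and 3418 CPM in Havcr1-zero cells (0.15, adjusted p = 0.373), beside 53.6 and 339 CPM in naive Havcr1-zero cells. B2m, the light chain of class I, was at 2272, 3159, 2084 and 2618 CPM against 2237, 3497, 2149 and 2582 CPM (-0.10, adjusted p = 0.573), beside 178 and 344 CPM in naive cells. Of 25 interferon-induced genes 1 rose, Bst2 (0.38), and 3 fell, Ifi27l2a (-1.72), Ifit3 (-0.71) and Irgm2 (-0.39). Between S3-type cells 1 of 22 rose, Gbp3, and none fell.

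Of 8 gluconeogenesis and fructose genes 5 fell and none rose (median -0.49), and the same 5 fell at matched depth and between S3-type cells. G6pc, the last enzyme of glucose release, was at 209, 119, 169 and 172 CPM in positive against 387, 202, 331 and 317 CPM in Havcr1-zero cells (log2 fold change -0.94, SE 0.10, adjusted p = 9.22e-05), lower in each graft. Pcx (-0.80), Sord (-0.63) and Fbp1 (-0.62) fell with it.

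Of 26 fatty acid oxidation genes 2 rose and 1 fell, a share close to the 10.3% over all genes tested. Acadm, the medium-chain acyl-CoA dehydrogenase, was at 989, 742, 827 and 939 CPM in positive against 423, 373, 399 and 305 CPM in Havcr1-zero cells (1.16, SE 0.11, adjusted p = 7.3e-05). Acaa2, a mitochondrial thiolase, went the other way with 70.3, 79.2, 67.8 and 77.6 CPM against 185, 265, 321 and 368 CPM (-2.02, SE 0.14, adjusted p = 7.38e-06). Neither gene overlapped between populations, and both passed between S3-type cells. Of 13 glycolysis genes 1 rose, Pfkp (0.46), and 2 fell, Hk1 (-1.54) and Pkm (-1.15), and none of 12 passed between S3-type cells. The 10 mitochondrially encoded respiratory chain genes fell together (median -0.43; mt-Nd3 by 0.64 and mt-Nd5 by 0.51 on the log2 scale), and between S3-type cells none of the 10 passed. The median mitochondrial percent per cell was 14.7, 12.4, 13.4 and 16.2 in positive and 18.7, 18.1, 15.5 and 21.4 in Havcr1-zero cells.

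Antioxidant and metal genes moved both ways, with 3 of 16 higher and 3 lower. Gclc, which starts glutathione synthesis, was at 257, 243, 201 and 354 CPM in positive against 88.0, 97.5, 88.8 and 72.9 CPM in Havcr1-zero cells (1.52, SE 0.16, adjusted p = 0.00014), and Nqo1, a quinone reductase, had a log2 fold change of 0.80. Gpx3, the secreted glutathione peroxidase, was at 4368, 5324, 7095 and 4800 CPM against 8447, 8996, 13077 and 11076 CPM (-1.01, SE 0.09, adjusted p = 5.18e-05), and the metallothionein gene Mt1 fell by 1.61 on the log2 scale. The populations did not overlap for Gclc and Gpx3, and both also passed between S3-type cells, where Nqo1 (0.30, adjusted p = 0.474) and Mt1 (-0.81, adjusted p = 0.0866) did not.

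Of the paralogs of Havcr1 and other phosphatidylserine receptors, 4 of 8 were tested and 2 rose. Timd2, the neighbouring paralog, was at 156, 177, 169 and 116 CPM in positive against 59.3, 56.5, 55.8 and 23.3 CPM in Havcr1-zero cells (1.68, SE 0.15, adjusted p = 3.03e-05). Naive Havcr1-zero cells held 77.5 and 63.2 CPM of it, between the levels of the 2 populations of the grafts. Cd36, a scavenger receptor, was at 118, 166, 150 and 179 CPM against 56.1, 51.0, 55.3 and 41.5 CPM (1.54, SE 0.15, adjusted p = 7.75e-05), and at 207 and 229 CPM in naive cells. Between S3-type cells Timd2 passed (0.61, adjusted p = 0.00107) and Cd36 did not (0.40, adjusted p = 0.0617).

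The 12 largest falls by the same limit on expression were of hemoglobin genes (Hbb-bt, Hba-a2, Hba-a1 and Hbb-bs, log2 fold changes -6.45 to -5.18), genes of the distal tubule and collecting duct (Calb1 -4.72, Klk1 -4.34, S100g -4.23, Hsd11b2 -3.84, Slc12a1 -3.65), immunoglobulin genes (Ighm -3.87, Igkc -3.40), and Rnase4 (-3.49). The hemoglobin genes are near-identical pairs whose reads may be split. Hbb-bs was at 14.1, 8.66, 2.88 and 15.7 CPM in positive and at 203, 88.2, 49.3 and 1587 CPM in Havcr1-zero cells, highest in tolerized 2. Of these 12 only Klk1, S100g and Rnase4 passed at matched depth, where 7 of the others were too low to be tested. The log2 fold change was then -2.33 for Klk1 and -1.25 for S100g. Rnase4, which encodes a secreted ribonuclease, was at 3.51, 23.5, 15.9 and 27.5 CPM in positive against 66.7, 198, 172 and 336 CPM in Havcr1-zero cells, and its log2 fold change at matched depth was -3.60 (adjusted p = 4.18e-07).

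Most markers of other cell types that passed were lower in the positive cells. Of 6 thick ascending limb genes tested 6 fell, with summed levels of 323, 298, 279 and 827 CPM against 437, 597, 838 and 2097 CPM. Of 9 macrophage genes 6 fell and 1 rose, Csf1r, with sums of 552, 172, 206 and 89.4 CPM against 943, 251, 224 and 193 CPM. Of 7 T cell genes 3 fell, of 8 endothelial genes 4 and of 4 B cell genes 3. Cd3e was barred from the positive cells alone, and Havcr1-zero cells held 5.71, 1.79, 1.25 and 1.08 CPM of it. The fall of the T cell genes (Cd3g, Nkg7 and Cd3d) is thus not independent of the rule. Of 5 distal convoluted tubule genes 4 fell, and of 5 principal cell genes 4. Of 3 intercalated cell genes none passed, and in rejecting 1 that list summed to 300.5 CPM in positive against 26.8 CPM in Havcr1-zero cells, with 1 of 42 positive cells holding 2 or more of its UMIs. Podocyte and parietal epithelium markers summed to 51.0, 42.1, 25.2 and 14.7 CPM in positive against 23.4, 15.03, 15.1 and 15.1 CPM in Havcr1-zero cells. Most of that sum in the first 3 grafts was Cldn1, a claudin (45.7, 40.8 and 23.1 CPM), and Nphs1, which encodes nephrin of the podocyte, was at 0.24 CPM or less in the positive cells. None of the 3, 1 and 3 genes of thick ascending limb, B cell and macrophage that could be tested at matched depth passed. Rejecting 1 held the highest macrophage and T cell sums in both populations. The part of free RNA and of mixed droplets in these values was not tested.

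**Figure D5:**
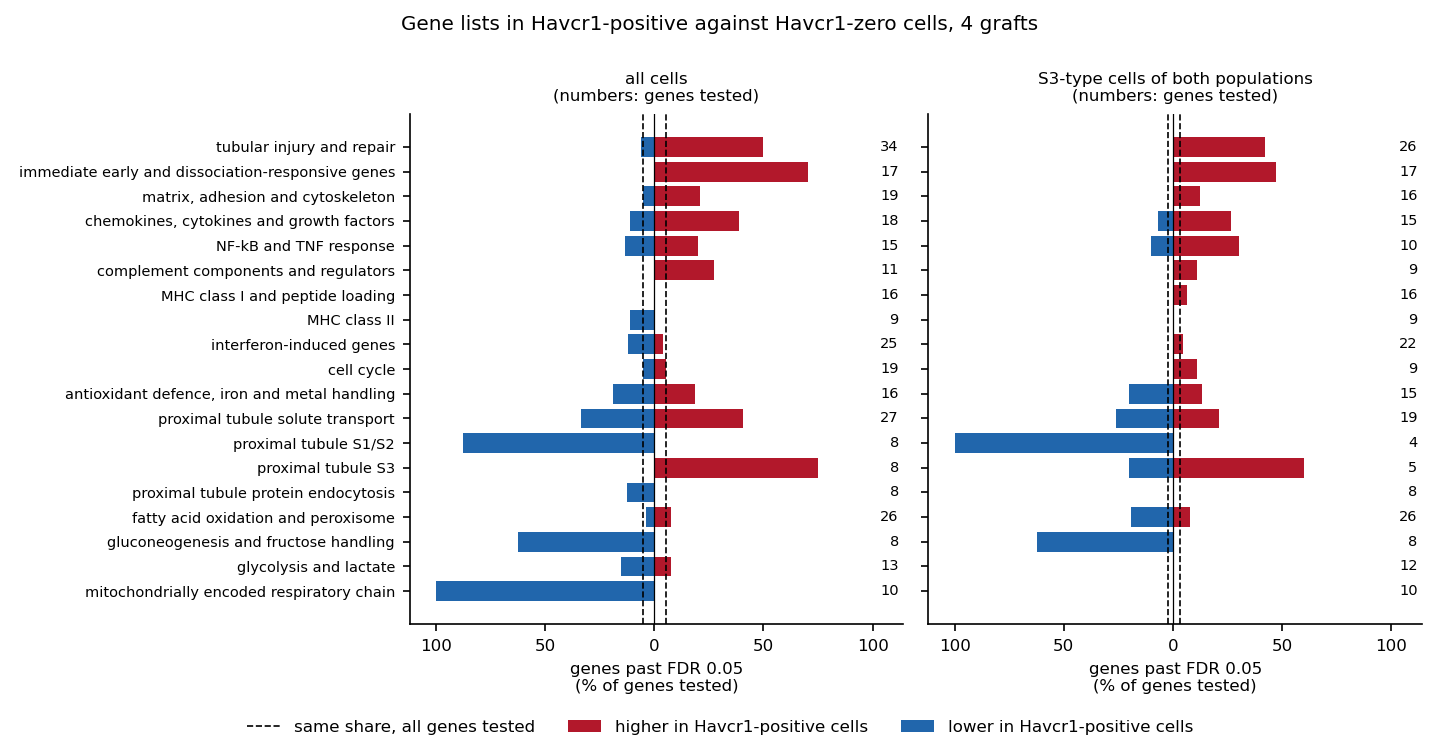
Percent of the genes tested in each list (rows) that passed a false discovery rate of 0.05, higher (to the right) or lower (to the left) in Havcr1-positive cells, for all cells and for S3-type cells, with dashed lines at the share over the genes tested (5.43% and 4.92% in the left panel, 3.3% and 2.5% in the right). Injury and early response genes lie past the line to the right in both panels and gluconeogenesis to the left, while the mitochondrially encoded genes do so in the left panel alone.

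Between rejecting and tolerized grafts, the Havcr1-positive cells themselves gave no gene past the threshold in edgeR without a block and 5 in DESeq2. Of 7549 genes tested on sums per kidney (2 against 2), 0 (0%) passed by edgeR's quasi-likelihood test, while 600 (7.95%) had an unadjusted p under 0.05. DESeq2 called 5 of the 1693 genes for which it gave an adjusted p: the ribosomal genes Rpl41, Rps28 and Rpl38 and the ATP synthase gene Usmg5 as lower and Rpl29 as higher in rejecting kidneys. The sums rest on 42 and 62 against 218 and 32 cells. The study describes 2 experiments, each with a kidney of every group, and the labels do not say whether the replicate numbers are those experiments. With the replicate number as a block, 61 genes passed, 37 higher and 24 lower in rejecting kidneys. The genes named next were chosen after their values were seen.

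The smallest p belonged to Mki67, a marker of cycling cells, at 86.1 and 56.9 CPM in the rejecting and 5.05 and 0 CPM in the tolerized grafts (log2 fold change 4.06, SE 0.52, adjusted p = 0.118). The groups did not overlap, yet the UMIs came from 4, 2, 2 and 0 cells, and in rejecting 2 a single cell held 40 of 46. Top2a, a topoisomerase of dividing cells, was at 130, 40.8, 7.21 and 0.983 CPM (3.75, adjusted p = 0.136). Cells with at least 2 UMIs over 8 cell cycle genes numbered 4, 4, 4 and 1. The Havcr1-zero cells of the same kidneys held 18.4, 37.9, 6.27 and 6.88 CPM of Mki67.

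None of 30 injury genes passed without the block, with a median log2 difference of 0.36 beside 0.002 over the genes tested, a positive sign for 24, and an unadjusted p under 0.05 for 10. Vcam1 had a log2 fold change of 1.12 (SE 0.37, adjusted p = 0.462), Cp 1.60 (adjusted p = 0.385) and Gdf15 1.07 (adjusted p = 0.314). The groups did not overlap for these 3 genes. The Havcr1-zero cells of the same kidneys held 70.1 and 59.9 against 30.7 and 22.2 CPM of Vcam1, and 201 and 143 against 96.4 and 51.2 CPM of Gdf15, so these too were higher there in the rejecting kidneys. None of 16 MHC class I genes (median 0.22) and of 21 interferon-induced genes (median 0.41) passed. The summed level of the interferon-induced genes was 4702 and 4317 against 2991 and 3467 CPM in positive cells and 4366 and 5066 against 3235 and 3098 CPM in Havcr1-zero cells. The ribosomal gene Rpl41 was lower in rejecting kidneys (796 and 870 against 2030 and 1798 CPM; -1.36, adjusted p = 0.136 by edgeR and 3.64e-05 by DESeq2), and so was Usmg5, a subunit of ATP synthase (169 and 251 against 505 and 489 CPM; -1.39, adjusted p = 0.136 by edgeR and 0.00165 by DESeq2). Havcr1-zero cells held 822 and 835 against 2180 and 1648 CPM of Rpl41, so the 2 populations of a kidney shared this level.

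A last test asked whether the change from Havcr1-zero to Havcr1-positive cells differed between rejecting and tolerized grafts. Of 11659 genes 6 passed (0.0515%), and 608 (5.21%) had an unadjusted p under 0.05. Gadd45g, a stress-induced gene of growth arrest, was at 77.3 and 171 CPM in positive cells of the rejecting grafts and at 344 and 154 CPM in those of the tolerized grafts. The Havcr1-zero cells of the same kidneys held 105, 158, 84.9 and 39.3 CPM. The change was thus near 0 in the rejecting grafts (-0.43 and 0.11 on the log2 scale) and close to 2 in the tolerized grafts (2.00 and 1.95), with a difference of -2.19 (SE 0.24, adjusted p = 0.000461).

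D10Wsu102e, a gene of unassigned function, followed the same course, with changes of 0.07 and 0.00033 for rejecting and of 1.39 and 1.77 for tolerized grafts (difference -1.62, adjusted p = 0.00491). The UMIs of Gadd45g came from 13, 29, 110 and 15 positive cells, and a single cell held 38.6% of them in rejecting 1 and 40.8% in tolerized 2. For D10Wsu102e 1 cell held 25% and 28.8% in these kidneys. The other 4 were Igkc (4.41), Atp6v1g3 (6.63), Snhg11 (-2.23) and Kng2 (1.86). Atp6v1g3, a subunit of the proton pump of intercalated cells, owed 111 of its 113 UMIs in positive cells of rejecting 1 to 1 cell. Of the Snhg11 UMIs in positive cells, 1 cell held 23 of 29 in rejecting 1 and 11 of 15 in rejecting 2. With no block for the kidney 0 genes passed by edgeR (313 with an unadjusted p under 0.05), and DESeq2 called 3.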

How the data were processed

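The deposited files are UMI count matrices of genes by barcodes, 1 per kidney, made by the authors with Cell Ranger (3.0.1 in the headers of the graft files, none stated in the naive files) on mm10. Totals ran from 34874702 UMIs (naive 2) to 96803926 (tolerized 1). Counts were summed per kidney and population, filtered with filterByExpr, scaled by TMM and tested with edgeR 4.0.16 (R 4.3.3, quasi-likelihood, Benjamini-Hochberg), with the kidney as a block for the 2 populations and without a block between groups. DESeq2 1.42.0 was the other tool. Levels printed are plain CPM. Fold changes are from the fit. The fits were tested on counts simulated from them, with 100 genes changed at each size. At a log2 change of 1 the fit between populations recovered 73% and the fit between groups 20%. At a log2 change of 2 they recovered 91% and 88%. The fit between groups would thus miss most changes of the smaller size.

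Named genes were the label's markers, the 12 largest changes each way (mean log2 CPM of at least 5, same sign in 4 grafts), at most 6 per list, and passing genes between groups, of which 1 gene is not reported here. Members and lists were chosen with earlier results of these data known. Doublets were scored with Scrublet in scanpy 1.11.5, ranked at 0.8% per 1000 barcodes and removed in an alternative alone. Library pairs shared 0 to 111 barcodes, and 4 members' barcodes occurred in another library. Xist and Y-linked genes gave no contradiction to the male label. Leukocytes were left out.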

Additional observations from a re-analysis of the deposited data

Results flagged for a closer look

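In 6 genes the change from Havcr1-zero to Havcr1-positive cells differed between rejecting and tolerized kidneys by edgeR's quasi-likelihood interaction test. The log2 difference was -2.19 for Gadd45g (adjusted p = 0.000461), 4.41 for Igkc (adjusted p = 0.000736), 6.63 for Atp6v1g3 (adjusted p = 0.00491), -1.62 for D10Wsu102e (adjusted p = 0.00491), -2.23 for Snhg11 (adjusted p = 0.00851) and 1.86 for Kng2 (adjusted p = 0.0308). For Igkc, an immunoglobulin light chain, the Havcr1-zero cells of tolerized 2 stood at 1123 CPM against 8.01 to 53.3 CPM in the other grafts, and its change was -5.40 there. In positive cells of rejecting 1 a single cell held 13 of its 14 UMIs. Among Havcr1-zero cells a single cell held 8.67%, 6.71%, 24% and 20.2% of the Igkc UMIs of its graft. For Atp6v1g3 the change was 3.29 in rejecting 1 and -2.46, -3.72 and -3.67 in the other grafts. Its UMIs in Havcr1-zero cells came to 69.6%, 84.1%, 21.0% and 8.40% from a single cell of each graft. Kng2, which encodes a kininogen, was higher in positive cells of both rejecting kidneys (1.91 and 0.73) and lower in those of both tolerized kidneys (-0.45 and -0.62), and 1 cell held 43.2% of its UMIs in positive cells of rejecting 1. Snhg11, a noncoding RNA, had changes of 0.08 and -1.48 against 1.32 and 1.70, and in each rejecting kidney 1 positive cell held most of its UMIs.

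In the grafts 65 barcodes held at least 2 Havcr1 UMIs but were left out for a UMI of Ptprc or Cd3e, 17, 17, 25 and 6 per kidney. The naive kidneys held 0.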

How the results depend on the processing

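The difference in share between rejecting and tolerized kidneys (0.216 percentage points) changed sign over all barcodes without Ptprc and Cd3e (-0.729) and ranged from -2.62 to 3.05 when a kidney was left out (-2.04 without rejecting 2, -2.62 without tolerized 2). The 1125 calls between populations became 1709 with no filter on low counts, 333 with no block for the kidney, 646 with comparison cells matched in depth and 126 in cells without leukocyte marker UMIs (5956 genes tested, on 0, 12, 48 and 1 positive cells of the 4 grafts). With cells chosen after seeing the data they became 664 (proximal gate and matched depth), 525 (S3-type) and 271 (S3-type, matched in depth), and 479 to 1133 when a kidney was left out, the lowest without tolerized 1.

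The 0 calls between groups became 5 with DESeq2, 184 with no filter, 61 with the replicate number as a block, 1 in cells without leukocyte marker UMIs (12 against 48 and 1 cells, with no cell of rejecting 1), and 0 to 136 when a kidney was left out (79 without rejecting 2, 136 without tolerized 1, 52 without tolerized 2). The deviations of same-numbered kidneys had a correlation of -0.027, and the labels do not tie the numbers to the study's 2 experiments, so whether they pair the kidneys is not settled. The 6 calls of the interaction became 3 with DESeq2, 93 with no filter and 0 with no block for the kidney. The cause of these shifts was not tested.

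Of 1950 values recomputed for a set of the genes named in the text, 1629 kept direction and side of the threshold, 248 fell below it, 57 rose past it and 16 changed sign, however near 0. These 16 were Krt18 in S3-type cells (1.23), B2m at 20% mitochondrial UMIs (0.0253) and in depth-matched S3-type cells (0.0598), Tmsb4x in the latter (0.0412), Prom1 in S3-type cells (0.395), Ccl5 at matched depth (0.0784, and 0.0167 in the proximal gate), Lcn2 with DESeq2 (-1.38) and without tolerized 1 (-1.54, against up to 0.535 without another kidney), and in cells without leukocyte marker UMIs H2-D1 (-0.381), Cd74 (-0.23), H2-Ab1 (-0.342), Ifit3 (0.801), Ccl5 (1.98, past the threshold), Lcn2 (-1.04) and, between groups, Vcam1 (-1.05). Outside that set, Sox4 and Clu also changed sign at matched depth. The log2 fold change between the populations went from 0.18 to -0.04 for Sox4 and from -0.97 to 0.02 for Clu, and none of these values passed. The group comparison rests on sums of 569090, 808215, 4158696 and 1017636 UMIs.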

Other observations

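A few further genes known from injured or regenerating tubule were examined per cell. Sox9, a transcription factor of regenerating tubule, had a UMI in 1 of 42, 4 of 62, 5 of 218 and 1 of 32 cells (2.38%, 6.45%, 2.29% and 3.12%). Havcr1-zero cells held one in 0.0464%, 0.554%, 0.468% and 0.845%, at lower depth. Krt20, a keratin of injured tubule, was seen in 9 of the 218 cells of tolerized 1 (4.13%) and in 0 cells of the other grafts, against 0.0929%, 0.111%, 0.167% and 0.176% of Havcr1-zero cells. Lcn2, which encodes the injury marker NGAL, had a UMI in 4 of 62 cells of rejecting 2 (6.45%), 9 of 218 of tolerized 1 (4.13%) and 0 of the other grafts, against 0.604%, 1.88%, 1.84% and 2.54% of Havcr1-zero cells. Its log2 fold change between the populations was 0.10 (SE 0.46) and did not pass (adjusted p = 0.955, edgeR). For Krt20 and Lcn2 the Havcr1-zero cells were likewise of lower depth. Thinned to 5000 UMIs, Sox9 was seen in 0 of 40, 3 of 57, 4 of 199 and 0 of 32 positive cells. In thinned Havcr1-zero cells it was seen in 0 of 844 in rejecting 1 and 2 of 388 in rejecting 2. Sox4, a transcription factor of the same family, had a UMI in 21.4%, 22.6%, 9.63% and 12.5% of positive cells and in 5.76%, 6.76%, 6.38% and 15.4% of Havcr1-zero cells. Thinned to 5000 UMIs, these shares were 15%, 12.3%, 5.03% and 9.38% against 6.64%, 7.22%, 4% and 8.4%. Cd24a, a surface glycoprotein gene, was seen in 10%, 12.3%, 7.04% and 3.12% against 3.79%, 7.47%, 6.85% and 11.7% of the thinned cells, and Clu, which encodes clusterin, in 15%, 24.6%, 15.1% and 12.5% against 7.23%, 6.96%, 6.69% and 12.6%.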
